A study of Mus musculus with 9 samples.

Results

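The keratins and ductular markers of mouse liver are described here as 10 genes taken by name from the deposited expression table of 21898 genes. They are the keratins Krt7, Krt8, Krt18, Krt19 and Krt23, the surface proteins Epcam, Cd24a and Prom1, the transcription factor Sox9 and the secreted protein Spp1. All 10 genes were found, and all 10 passed the filter on low counts that left 13200 genes for testing. RNA was sequenced from livers of C57BL/6 mice in 9 libraries. The normal group (3 libraries, titled wild type) received saline per the labels. The model group (3 libraries) ate an MCD diet, a methionine- and choline-deficient feed used to produce fatty liver with inflammation, here as a model of metabolic-associated fatty liver disease. The TA group (3 libraries) ate the same diet and received a high dose of tormentic acid, a plant triterpenoid. Diet therefore separates both of the other groups from the normal group, and treatment separates TA from model. The labels give no dose, age, sex or time on diet, nor a vehicle for the model group. Nothing in the labels ties a library to a separate mouse, so each p reflects only how far these libraries spread, which may be technical.

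A ductular reaction is the spread of small, bile-duct-like cells from the portal tracts into the liver tissue, and it accompanies many chronic liver injuries, fatty liver with inflammation among them. Keratins are the intermediate filament proteins of epithelia, and their filaments need a type I chain paired with a type II chain. Hepatocytes normally make Krt8 (type II) and Krt18 (type I), whereas cholangiocytes, the cells of the bile ducts, add Krt7 (type II) and Krt19 (type I). In whole tissue, a change in the number of such cells cannot be told apart from a change in RNA per cell.

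Krt8 (ENSMUSG00000049382, GRCm38 chr15:101996698-102004482, minus strand) and Krt18 (ENSMUSG00000023043, chr15:102028180-102032027, plus strand) lie head to head, with 23.7 kb between their start sites. Krt7 (ENSMUSG00000023039) lies on the same chromosome at chr15:101411043-101430313 on the plus strand. The type I genes Krt19 (ENSMUSG00000020911, chr11:100140810-100148665) and Krt23 (ENSMUSG00000006777, chr11:99477974-99493137) are both on the minus strand of chromosome 11, which also carries Sox9 (ENSMUSG00000000567, chr11:112782224-112787760, plus strand). Epcam (ENSMUSG00000045394) is at chr17:87635979-87651129 and Cd24a (ENSMUSG00000047139) at chr10:43578284-43584265, both on the plus strand. Spp1 (ENSMUSG00000029304, chr5:104435118-104441050, plus strand) and Prom1 (ENSMUSG00000029086, chr5:43993620-44102032, minus strand) share chromosome 5. Annotated genes overlap Krt7 (Gm671), Krt8 (Gm36026), Spp1 (Gm42793) and Prom1 (Gm42716 and Gm16401), and a pseudogene is named for Krt8 (Krt8-ps). The labels and headers do not state how strand was counted, so reads of overlapping genes, and some reads of Krt8 and its pseudogene, cannot be told apart.

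Promoter windows of 300 bases (250 before and 50 after the start, RefSeq, GRCm38.p6) were found for 7 of the 10 genes, in 9 windows. The windows below are those of the hepatocyte keratin pair Krt8 and Krt18, whose levels moved alike, and of Epcam and Prom1, which had larger differences between groups. Capitals mark matches to the motifs searched on both strands.
Krt8 promoter, GRCm38.p6 chr15:102004293-102004592, strand −: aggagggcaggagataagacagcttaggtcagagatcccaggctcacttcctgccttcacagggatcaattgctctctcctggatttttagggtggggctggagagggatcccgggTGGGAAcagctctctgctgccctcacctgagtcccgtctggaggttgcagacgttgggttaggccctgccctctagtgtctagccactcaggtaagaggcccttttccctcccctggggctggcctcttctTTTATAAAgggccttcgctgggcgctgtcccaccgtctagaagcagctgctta
Krt18 promoter, GRCm38.p6 chr15:102027966-102028265, strand +: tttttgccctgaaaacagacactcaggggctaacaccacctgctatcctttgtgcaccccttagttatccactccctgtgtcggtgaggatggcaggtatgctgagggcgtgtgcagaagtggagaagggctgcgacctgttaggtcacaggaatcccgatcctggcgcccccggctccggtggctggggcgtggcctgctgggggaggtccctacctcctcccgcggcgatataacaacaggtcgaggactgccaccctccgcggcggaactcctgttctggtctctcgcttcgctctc
Epcam promoter, GRCm38.p6 chr17:87635729-87636028, strand +: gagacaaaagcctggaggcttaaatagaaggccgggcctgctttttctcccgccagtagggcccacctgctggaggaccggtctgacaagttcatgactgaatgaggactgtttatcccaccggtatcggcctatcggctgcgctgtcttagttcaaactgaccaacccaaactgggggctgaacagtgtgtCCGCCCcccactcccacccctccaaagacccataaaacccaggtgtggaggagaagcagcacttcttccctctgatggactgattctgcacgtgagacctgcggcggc
Prom1 promoter, GRCm38.p6 chr5:44101687-44101986, strand −: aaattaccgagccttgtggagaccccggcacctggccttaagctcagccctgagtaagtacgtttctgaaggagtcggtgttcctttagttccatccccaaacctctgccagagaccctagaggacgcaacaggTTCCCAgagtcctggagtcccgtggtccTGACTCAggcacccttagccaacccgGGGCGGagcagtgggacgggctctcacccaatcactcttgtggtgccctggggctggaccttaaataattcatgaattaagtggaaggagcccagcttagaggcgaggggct

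The motifs were AP-1 (TGANTCA), TEAD (GGAATG), RBPJ (TGGGAA), the GC box (GGGCGG) and the TATA box (TATAAA). Positions are counted from the RefSeq start of each window to the first base of the match. For Krt8 and Prom1 that start and the matches lie inside the gene spans given above. The Krt8 window held an RBPJ match 134 bases before the start. It also held overlapping TATA box matches, 1 on each strand, beginning 3 and 1 bases before the start. The Epcam window held a GC box match 58 bases before the start. In the Prom1 window an AP-1 match lay 88 bases, a GC box match 62 bases and an RBPJ match 116 bases before the start, and the Krt18 window held no match. Over the 9 windows, AP-1 was found in 2, TEAD in 0, RBPJ in 2, the GC box in 3 and the TATA box in 2. Both windows with AP-1 were those of Prom1. Among 32851 mouse promoter windows of this length the shares with a match were 7.81%, 14.7%, 25.6%, 35.7% and 13.6%, in that order. A match describes the letters of a window and says nothing of binding.

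Library totals ranged from 13710002 to 16475794 counts. TMM factors, which scale libraries for composition, were 0.824 to 0.842 in the normal, 1.19 to 1.44 in the model and 0.801 to 1.01 in the TA libraries. Summed over 9 hepatocyte markers, albumin among them, levels were at least 44864 CPM (reads scaled to a common TMM-adjusted library size) in every library, and the label of liver is borne out by them. Library totals without TMM factors would put the median log2 difference of all genes at 0.69 (model against normal), −0.59 (TA against model) or 0.14 (TA against normal), in place of 0.0047, −0.0135 and 0.0337. The share of called genes that were higher would then be 89.7% in place of 52.9% for model against normal, 6.55% in place of 51.5% for TA against model, and 78.4% in place of 68.1% for TA against normal. Model replicate 2 was low for most of the ductular genes, though not only for them. It was the lowest model library for 8 of the 10 genes, compared with 34.3% of all tested genes and 67.9% of genes called higher in the model group. It was also the lowest for 9 of 12 macrophage and 6 of 8 stellate cell markers, and for 0 of 9 hepatocyte markers and 0 of 8 cell cycle genes. Results that rest on it are given with and without it.

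In model against normal, 9 of the 10 genes rose, and Krt19 did not pass the test. Of all genes tested, 48.1% were called in either direction, 25.4% rose and 22.6% fell. The median log2 difference was 3.19 over the 10 genes and 0.0047 over all tested genes. For 8 genes every model library lay above every normal library, which held for 31.3% of all tested genes (the reverse held for 30.0%), and for Krt19 and Sox9 the groups overlapped. Without model replicate 2, all 10 genes rose, beside 49.5% of 13476 tested genes called in either direction and 3448 that rose. That library was singled out for its low values in these genes, so this count is not independent of that choice.

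**Figure D1:**
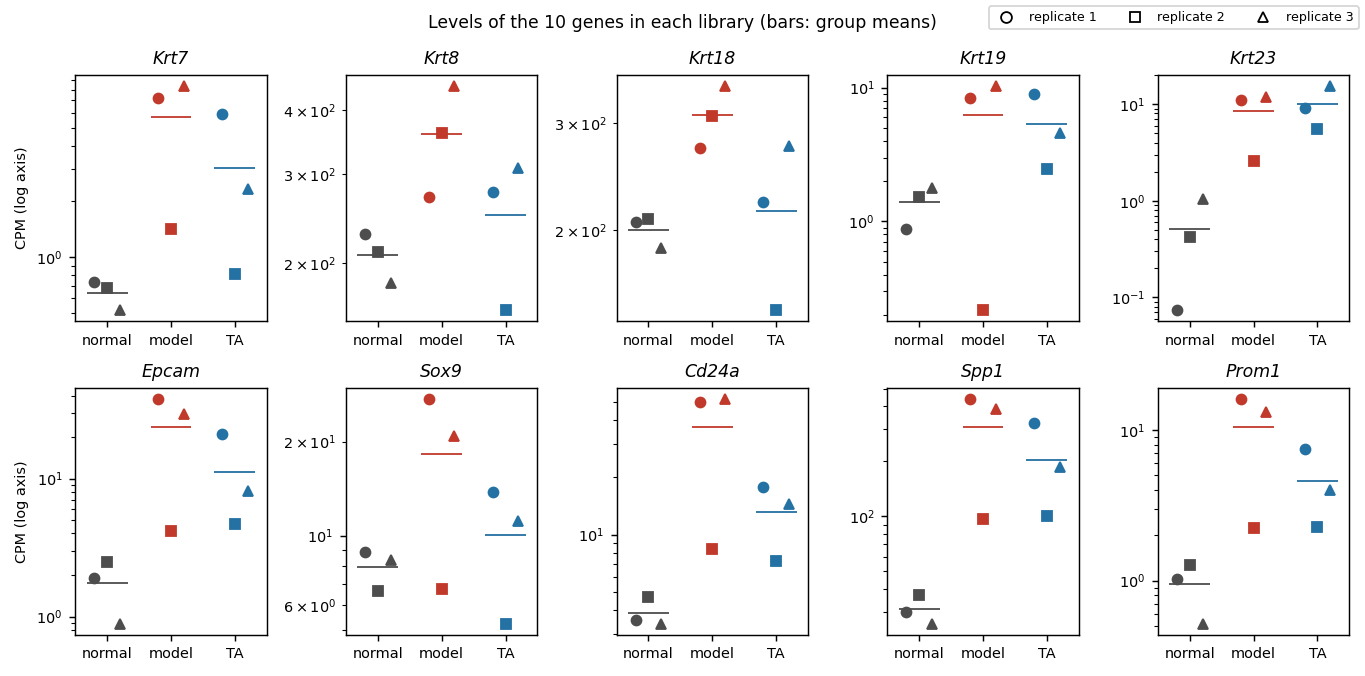
Level of each of the 10 genes in each library, in CPM on a log axis, by group (x axis); bars are group means and marker shapes give the replicate number. Model replicate 2 (square) lies below the other model libraries for every gene but Krt8 and Krt18.

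The hepatocyte keratins were the most abundant of the 10 genes in every normal library and had the smallest rises. In model replicate 1 and TA replicate 1, Spp1 exceeded both of them in CPM. Krt8 stood at 228, 211 and 183 CPM in normal replicates 1, 2 and 3, at 271, 361 and 447 in the model replicates, and at 276, 162 and 307 in the TA replicates. Model libraries all lay above normal ones, and the TA libraries spanned both. Krt8 rose by a log2 fold change of 0.79 ± 0.26 (SE, adjusted p = 0.0249). Krt18, its filament partner, was at 206, 208 and 187 CPM in normal, 273, 309 and 346 in model and 223, 148 and 275 in TA libraries. Its order of libraries within the model and TA groups was that of Krt8, with replicate 3 highest in both. Krt18 rose by 0.62 ± 0.22 (SE, adjusted p = 0.0351). Both calls were close to the threshold. The Krt8 call was lost without normal replicate 2 (adjusted p = 0.0663), normal replicate 3 (0.0927) or model replicate 3 (0.104). The Krt18 call was lost without normal replicate 1 (0.0799), 2 (0.0786) or 3 (0.113), without model replicate 3 (0.112) and with the replicate number as a block (0.0585).

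The keratins of the bile ducts were low in normal liver. Krt7, the type II keratin of ducts, was at 0.737, 0.682 and 0.519 CPM in normal, 7.24, 1.41 and 8.40 in model and 5.92, 0.817 and 2.35 in TA libraries, on counts of 7 to 194 per library. Every library on the diet exceeded every normal one, although TA replicate 2 did so narrowly. Krt7 rose in the model group by a log2 fold change of 3.13 ± 0.78 (SE, adjusted p = 0.00634). Krt19, the type I keratin of ducts, was at 0.884, 1.53 and 1.78 CPM in normal, 8.30, 0.217 and 10.3 in model and 8.88, 2.45 and 4.61 in TA libraries. The model group thus held both the highest and the lowest Krt19 library of the study. Its counts were 188, 4 and 238 in the model libraries and 12 to 24 in the normal ones. The log2 difference was 2.17 ± 0.90 (SE, adjusted p = 0.0656). It was 2.72 ± 0.48 (adjusted p = 0.000844), and a call, without model replicate 2. As that library was singled out for its low values in these genes, the call is not independent of that choice. Krt19 was also called, with all libraries, under library totals and without the filter on low counts.

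Krt23, a type I keratin known to be induced in injured mouse liver, had the largest fitted rise of the 10 genes. It was at 0.0737, 0.426 and 1.04 CPM in normal, 11.1, 2.61 and 11.9 in model and 9.13, 5.47 and 15.5 in TA libraries. The normal values rest on 1, 5 and 14 counts. Every library on the diet was above every normal library, and the highest of all was TA replicate 3. Krt23 rose by 4.04 ± 0.75 (SE, log2, adjusted p = 0.00116) in the model group, a size set partly by 1 normal library, since it was 5.11 without normal replicate 3.

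The surface proteins of ductular and progenitor cells rose together. Epcam, a cell adhesion molecule of epithelia that adult hepatocytes lack, was at 1.92, 2.47 and 0.889 CPM in normal, 37.7, 4.18 and 29.4 in model and 21.0, 4.65 and 8.09 in TA libraries. Cd24a, a lipid-anchored glycoprotein of biliary and progenitor cells that is also found on B cells and neutrophils, was at 3.54, 4.69 and 3.41 CPM in normal, 49.8, 8.42 and 51.6 in model and 17.9, 7.27 and 14.4 in TA libraries. Prom1, the membrane protein CD133, was at 1.03, 1.28 and 0.519 CPM in normal, 16.1, 2.23 and 13.3 in model and 7.49, 2.29 and 4.0 in TA libraries. For each of these genes, all 6 libraries on the diet lay above the 3 normal libraries, and replicate 2 was the lowest of both the model and the TA group. The log2 fold changes in model against normal were 3.77 ± 0.79 for Epcam (SE, adjusted p = 0.00253), 3.24 ± 0.58 for Cd24a (adjusted p = 0.000992) and 3.49 ± 0.71 for Prom1 (adjusted p = 0.00205). With limma-voom the calls of Epcam (adjusted p = 0.0681), Prom1 (0.0562) and Krt7 (0.0677) were lost, and Cd24a was called under every alternative tried.

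Sox9, a transcription factor of bile duct cells and of some periportal hepatocytes, was at 8.84, 6.65 and 8.37 CPM in normal, 27.4, 6.74 and 20.8 in model and 13.8, 5.23 and 11.1 in TA libraries. Model replicate 2 lay within the normal range. The rise of 1.20 ± 0.45 (SE, log2, adjusted p = 0.0440) was the call nearest the threshold. It was lost without normal replicate 1 (adjusted p = 0.0807), 2 (0.127) or 3 (0.0926), without model replicate 1 (0.196) or 3 (0.105), without TA replicate 3 (0.0589) and with limma-voom (0.14). Spp1 encodes osteopontin, a secreted phosphoprotein made by cholangiocytes and by macrophages. It was at 29.9, 37.1 and 25.8 CPM in normal, 439, 96.2 and 389 in model and 325, 101 and 186 in TA libraries. Its lowest library on the diet was more abundant than its highest normal library. Spp1 rose by 3.32 ± 0.54 (SE, log2, adjusted p = 0.000564), and the call held under every alternative tried.

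The authors' deposited table for model against normal gave an adjusted p under 0.05 for 8 of the 10 genes, and not for Krt19 (0.202) or Sox9 (0.195). The folds in the authors' deposited table ran from 1.55 for Krt18 and 1.74 for Krt8 to 13.7 for Epcam and 16.8 for Krt23.

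**Figure D2:**
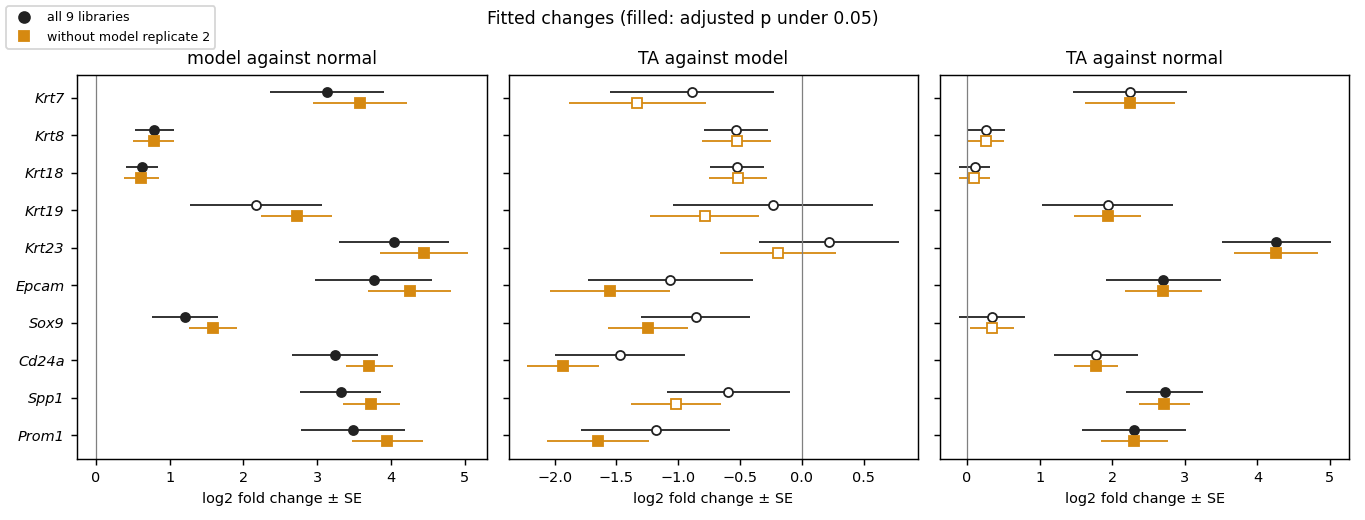
Fitted log2 fold change with its SE (x axis) for each gene (y axis) in the 3 comparisons, with all 9 libraries (circles) and without model replicate 2 (squares); filled markers have an adjusted p under 0.05. In TA against model no circle is filled, and Epcam, Sox9, Cd24a and Prom1 are filled without model replicate 2; Krt23 changes sign between these fits.

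Levels per kilobase of the listed gene length allow the genes to be ordered. In normal liver, Krt18 was at 140 ± 8.21 CPM per kilobase (SD, n = 3) and Krt8 at 106 ± 11.6, whereas Spp1 was at 18.8. The means of the other genes in normal liver ran from 1.92 for Sox9 to 0.0916 for Krt7. In the model group Krt18 (215), Spp1 (187) and Krt8 (184) had means close to one another, followed by Cd24a (14.2) and Epcam (10.8). In the TA group the order began with Krt18 (150), Krt8 (127) and Spp1 (124), and Krt23 (6.41) came next, ahead of Epcam (5.13) and Cd24a (5.12). Those last 3 did not differ beyond their spread over libraries. The listed lengths of Krt7 (7049 bases) and Prom1 (7175 bases) exceed the longest annotated transcripts (4094 and 4089 bases). Smaller excesses were found for Cd24a (2580 against 1816), Krt19 (1855 against 1576), Epcam (2195 against 2040) and Spp1 (1648 against 1507). Levels per kilobase of all these genes are understated if those transcripts are the ones made, and the order of genes at close levels depends on the length used.

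Ratios within a library do not depend on its scaling. Krt18 to Krt8, per kilobase, was 1.23, 1.35 and 1.39 in normal, 1.38, 1.16 and 1.05 in model and 1.10, 1.25 and 1.22 in TA libraries. The partners thus kept within a narrow range in all 9 libraries while both levels differed. Krt7 to Krt8 was 0.0009, 0.0009 and 0.0008 in normal, 0.0074, 0.0011 and 0.0052 in model and 0.0060, 0.0014 and 0.0021 in TA libraries. Krt23 to Krt8 was 0.0004, 0.0025 and 0.0071 in normal, 0.0512, 0.0090 and 0.0333 in model and 0.0413, 0.0423 and 0.0630 in TA libraries. For both ratios every library on the diet lay above every normal one. Krt19 to Krt8 was 0.0041, 0.0077 and 0.0102 in normal, 0.0324, 0.0006 and 0.0243 in model and 0.0340, 0.0160 and 0.0158 in TA libraries, so the model group spanned the others. In exact two-sided permutation tests, where 3 against 3 cannot go below p = 0.1, the model and normal groups differed in log2 ratio by 2.02 for Krt7 (p = 0.1), 3.69 for Krt23 (p = 0.1), 0.21 for Krt19 (p = 1) and −0.15 for Krt18 (p = 0.3). Between TA and model the log2 differences were −0.42 for Krt7 (exact p = 0.9), 0.95 for Krt23 (0.3), 1.37 for Krt19 (0.8) and −0.0037 for Krt18 (1). Adjusted over the 8 tests, the lowest p was 0.4.

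**Figure D3:**
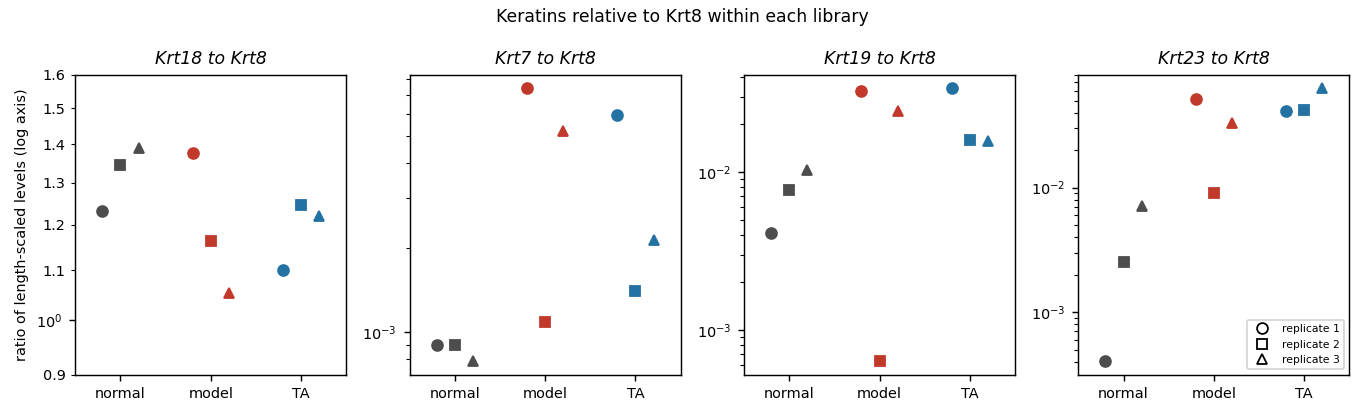
Ratio of each keratin to Krt8 per kilobase of gene length in each library (y axis, log scale), by group; marker shapes give the replicate number. Krt18 stays between 1.05 and 1.39 times Krt8, and the Krt7 and Krt23 ratios are higher in every library on the diet than in the normal libraries.

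Treatment with TA was compared with the model group, and 0 of the 10 genes were called, where 23.0% of all tested genes were called in either direction and 11.1% fell. Counted at an unadjusted p under 0.05, 2 of the 10 genes were lower (Krt18 and Cd24a), compared with 36.7% of all tested genes in either direction. DESeq2 called the same 2 genes lower and limma-voom called 0, beside 3622 and 3250 of all genes in either direction. The fitted difference was below 0 for 9 of the 10 genes and for 51.0% of all tested genes, with medians of −0.73 over the 10 genes and −0.0135 over all genes on the log2 scale. None of the 10 genes had TA libraries all above or all below the model libraries, which held for 19.0% and 20.1% of all tested genes.

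The fitted log2 differences in TA against model were −1.47 ± 0.53 for Cd24a (SE, adjusted p = 0.0651), −1.18 ± 0.60 for Prom1 (0.18) and −1.07 ± 0.67 for Epcam (0.270). The hepatocyte keratins were at −0.53 ± 0.26 for Krt8 (adjusted p = 0.156) and −0.52 ± 0.22 for Krt18 (0.108). Krt7 was at −0.89 ± 0.66 (adjusted p = 0.356), Sox9 at −0.86 ± 0.44 (0.182) and Spp1 at −0.60 ± 0.50 (0.411). The 2 type I keratins that injury or ducts add lay nearest 0, with Krt19 at −0.23 ± 0.81 (adjusted p = 0.862) and Krt23 at 0.22 ± 0.57 (0.806), and the sign of both turned under some alternatives. The authors' deposited table for TA against model gave 0 of the 10 genes at an adjusted p under 0.05.

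Calls in this comparison depended on model replicate 2, which was singled out for its low values in these genes. Leaving it out raises the model level of Cd24a, Prom1, Epcam and Sox9, so the calls that follow are not independent of that choice. Without it, Cd24a fell by 1.93 (log2, adjusted p = 0.00110), Prom1 by 1.65 (0.0139), Epcam by 1.55 (0.0342) and Sox9 by 1.25 (0.0157) in TA against model. Of 13476 tested genes, 28.1% were then called in either direction and 1719 were lower. Leaving out any other single library gave 0 calls among the 10 genes. Among the TA libraries, replicate 1 was the highest for Krt7, Krt19, Epcam, Sox9, Cd24a, Spp1 and Prom1, and replicate 2 the lowest for all 10 genes. For Spp1, the 101 CPM of TA replicate 2 was above the 96.2 CPM of model replicate 2, and for Krt19, Krt23, Epcam and Prom1 too the lowest TA library was above model replicate 2.

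Against the normal group, Krt23, Spp1, Epcam and Prom1 rose in the TA group, 4 of 10 genes, where 15.8% of all tested genes were called, 10.7% rose and 5.03% fell. Comparisons with the model group and with the normal group share the TA libraries, and both comparisons with the model group share its 3 libraries. Krt23 rose by 4.26 ± 0.75 (SE, log2, adjusted p = 0.00314; 5.34 without normal replicate 3, and not called with limma-voom, adjusted p = 0.0611) and Spp1 by 2.72 ± 0.53 (adjusted p = 0.00571), a call that held under every alternative. Epcam rose by 2.70 ± 0.79 (adjusted p = 0.0394) and Prom1 by 2.30 ± 0.72 (0.0495). Those calls rested on single libraries: without TA replicate 1 the Epcam difference was 1.83 (0.145) and the Prom1 difference 1.71 (0.158). They were also lost without TA replicate 3 or any 1 normal library, and with limma-voom, and the Prom1 call also without model replicate 3, with the replicate block (2.12) and with other scalings. For 7 genes (the 4 above with Krt7, Krt19 and Cd24a) all TA libraries lay above all normal ones, as for 20.1% of all tested genes. Krt7 differed by 2.24 ± 0.79 (adjusted p = 0.0750), Krt19 by 1.94 ± 0.91 (0.171) and Cd24a by 1.78 ± 0.58 (0.0582). Without model replicate 2 in the fit, 7 genes rose, beside 18.3% of 13476 tested genes called in either direction and 1595 that rose. Krt7 was then at 2.25 ± 0.62 (SE), a nearly unchanged difference with a smaller SE. The added calls are not independent of the choice of that library. Sox9 (0.34 ± 0.46, adjusted p = 0.652), Krt8 (0.26 ± 0.26, 0.532) and Krt18 (0.10 ± 0.22, 0.792) were near the normal level.

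Other genes of the biliary epithelium were followed with a list of 25, of which 21 were tested. This list, like the others below, was chosen with earlier results of these data known. In model against normal 14 rose and 0 fell, with a median log2 difference of 3.14, beside 25.4% and 22.6% of all tested genes. Sox4, a transcription factor related to Sox9, was at 2.06, 3.07 and 3.33 CPM in normal, 36.0, 5.81 and 37.3 in model and 8.58, 6.04 and 8.79 in TA libraries. It rose by 3.23 ± 0.57 (SE, log2, adjusted p = 8.45e-04) and fell in TA against model by 1.76 ± 0.52 (adjusted p = 0.0305). The tetraspanin Tspan8 rose by 4.09 ± 0.82 (adjusted p = 0.00189), and the epithelial transcription factors Elf3 and Ehf by 3.51 ± 0.66 (0.00126) and 3.84 ± 0.80 (0.00241). Model replicate 2 was the lowest model library for 20 of the 21 biliary genes, the same library as for the ductular members above, beside 67.9% of all genes called higher in the model group. With limma-voom 5 of the 21 were called, beside 6234 of all genes in place of 6344.

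In TA against model, 3 biliary genes fell (Sox4, Pkd2 and Sorbs2) and 0 rose, with a median of −0.99, where 11.1% of all tested genes fell; Pkd2 and Sorbs2 were named after their values were seen. The count was 12 with library totals, 10 without model replicate 2, 6 without TA replicate 1, 2 without normal replicate 2 or 3, 1 without normal replicate 1 or TA replicate 2, and 0 without model replicate 1, model replicate 3 or TA replicate 3 and in a fit of only the 6 libraries. In TA against normal 2 rose, the tight junction protein Cldn7 and the annexin Anxa13, also named after their values were seen. That is 2 of 21, where 10.7% of all tested genes rose. The count was 10 without model replicate 2, 6 with DESeq2, with the replicate block or in a fit of only the 6 libraries, 5 without the filter on low counts and 4 without TA replicate 2. It was 3 without model replicate 1, 1 without model replicate 3, TA replicate 1 or TA replicate 3, and 0 with limma-voom or without any 1 normal library.

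A list of genes around keratin filaments held genes that rose and genes that fell. Its tested genes were for other filament proteins, plakins and desmosome parts, with Tchp, Ywhaz and Sqstm1 besides. Of these 14 genes, 6 rose and 3 fell in model against normal, with a median log2 difference of 0.47. Over all tested genes 25.4% rose and 22.6% fell, close to the share of these genes that fell. Vim, the filament protein of mesenchymal cells, rose by 2.77 ± 0.28 (SE, adjusted p = 2.27e-05), the plakin Ppl by 2.0 ± 0.23 (5.81e-05), the nuclear lamin Lmna by 0.91 ± 0.16 (7.25e-04) and the keratin-binding Tchp by 1.56 ± 0.37 (0.00499). Dsg2, the desmoglein of simple epithelia, was at 184, 148 and 206 CPM in normal and 119, 99.3 and 138 in model libraries, and fell by 0.59 ± 0.18 (adjusted p = 0.0181). The 9 calls were 5 without normal replicate 1 and 4 without normal replicate 3. Ppl was at 57.1, 44.4 and 38.0 CPM in model and 63.3, 58.4 and 45.2 in TA libraries, and it rose in TA against normal as well (2.26 ± 0.24, adjusted p = 0.000144).

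Most receptors of osteopontin rose in model against normal and fell in TA against model, where Spp1 was not called. The list held 8 receptor genes, CD44 and integrin chains, and all were tested. In model against normal 7 rose and 0 fell, with a median log2 difference of 1.24, beside 25.4% and 22.6% of all tested genes. Cd44, also the hyaluronan receptor, was at 14.8, 14.8 and 15.6 CPM in normal, 143, 91.8 and 111 in model and 29.7, 51.0 and 40.1 in TA libraries. It rose by 2.93 ± 0.23 (SE, adjusted p = 3.70e-06) and fell in TA against model by 1.52 ± 0.21 (adjusted p = 0.00199). The integrin chains Itga4, Itga9 and Itgav rose by 2.62 ± 0.31, 1.70 ± 0.24 and 1.04 ± 0.19 and fell in TA against model by 1.46, 1.31 and 0.95 (adjusted p = 0.00664, 0.00477 and 0.00678). In TA against model 6 of the 8 fell, where 11.1% of all tested genes fell. The median was −1.13, and the count was 5 to 7 with any 1 library left out. Whether receptors and Spp1 differ in their response to TA was not tested.

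Among 20 genes of the TWEAK, YAP and Notch pathways, which are known to drive ductular cells in mouse liver, 11 rose and 2 fell in model against normal, with a median log2 difference of 0.97, beside 25.4% and 22.6% of all tested genes. Tnfrsf12a, the TWEAK receptor, was at 8.18, 13.5 and 7.19 CPM in normal, 54.3, 40.0 and 58.0 in model and 22.7, 16.1 and 18.5 in TA libraries. It rose by 2.40 ± 0.25 (SE, adjusted p = 2.55e-05) and fell in TA against model by 1.41 ± 0.24 (adjusted p = 0.00371). The YAP pathway genes Ajuba and Tead1 rose by 2.33 ± 0.38 and 1.48 ± 0.26 and the Notch target Hey1 by 2.95 ± 0.54 (adjusted p = 0.000496, 0.000888 and 0.00111). Tead3, a DNA-binding partner of YAP, fell by 0.77 ± 0.19 (adjusted p = 0.00573), and Yap1 itself, named after its values were seen, fell by 0.48 ± 0.15 (0.0235). In TA against model 6 of the 20 fell and 0 rose, where 11.1% of all tested genes fell, a count of 4 without TA replicate 1 and of 2 without model replicate 1, model replicate 3, TA replicate 2 or TA replicate 3.

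Markers of other cell types moved in the same comparisons. Their counts in model against normal stand beside 25.4% of all tested genes that rose and 22.6% that fell. Summed CPM of 12 macrophage markers was 308 to 389 in normal, 3351 to 3852 in model and 1539 to 2489 in TA libraries, and 11 of the 12 rose in the model group. In model replicate 2 the macrophage sum was 3351, the lowest of the model group but far above the normal libraries, while Spp1 was at 96.2 CPM there. The sum of 8 stellate cell markers was 70.3 to 146 in normal, 375 to 1381 in model and 236 to 669 in TA libraries, with 6 of 8 higher in the model group. Model replicate 2 was lowest there too, at 375. For 8 mesothelial markers the sums were 2.15 to 4.94, 2.01 to 12.5 and 2.45 to 5.62, again with model replicate 2 lowest at 2.01. Both mesothelial markers that could be tested rose in model against normal. Gpm6a was at 1.99, 2.56 and 1.93 CPM in normal and 8.74, 1.41 and 8.97 in model libraries, and Wt1 at 0.0737, 0.426 and 0 in normal and 1.02, 0.380 and 2.34 in model libraries. Both calls were lost without normal replicate 1 or 3, without model replicate 1 or 3, with the replicate block and with limma-voom, and 1 was left without normal replicate 2, with the stricter filter or in a fit of the 6 libraries. Markers below the filter were named after their values were seen. Upk1b, Muc16 and Bnc1 were at 0 in every model library, whereas Msln, Upk3b and Lrrn4 had reads in each. Msln was at 0.221, 0.0852 and 0 CPM in normal and 0.309, 0.0543 and 0.433 in model libraries. Sums of 8 neutrophil markers were 4.74 to 25.0, 39.6 to 94.1 and 20.6 to 33.9, with all 7 tested markers higher in the model group and model replicate 2 its lowest library at 39.6. The sums of 8 B cell markers were 8.11 to 17.6, 19.1 to 24.9 and 15.6 to 23.9, with model replicate 2 again the lowest of its group. Gut and pancreas markers summed to 71.3 to 87.1, 90.9 to 139 and 83.9 to 148, most of it Fabp2 (group means 58.6, 106 and 97.7). The sums hide the pancreas markers Ctrb1 and Cpa1, at 2.12 and 1.06 CPM in TA replicate 2 and at most 0.130 and 0 in any other library. The source of these reads was not tested. Of the 3 gut and pancreas markers that could be tested, 2 rose and 1 fell (Cela1) in model against normal. Vil1, the microvillus protein villin, was at 0.589, 0.0852 and 0.445 CPM in normal and 3.75, 0.543 and 3.73 in model libraries, lowest in model replicate 2, and the gut markers Cdx2 and Lypd8 were at 0 in all libraries. Red cell markers summed to 293 to 380, 206 to 222 and 347 to 675. Means in normal and model libraries were 125 and 23.1 CPM for Alas2, but 78.0 and 72.4 for the globin Hba-a1 and 106 and 102 for Hbb-bs. In model against normal 1 of the 5 tested red cell markers fell and 0 rose. The hepatocyte sum was 115002 to 140452 in normal, 44864 to 75822 in model and 104614 to 136969 in TA libraries, and model replicate 2 had the highest value of its group. Cell cycle genes summed to 10.7 to 16.5, 67.0 to 107 and 15.8 to 31.4, and here model replicate 2 was the highest at 107. The part of these cells in the levels of the 10 genes was not tested.

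**Figure D4:**
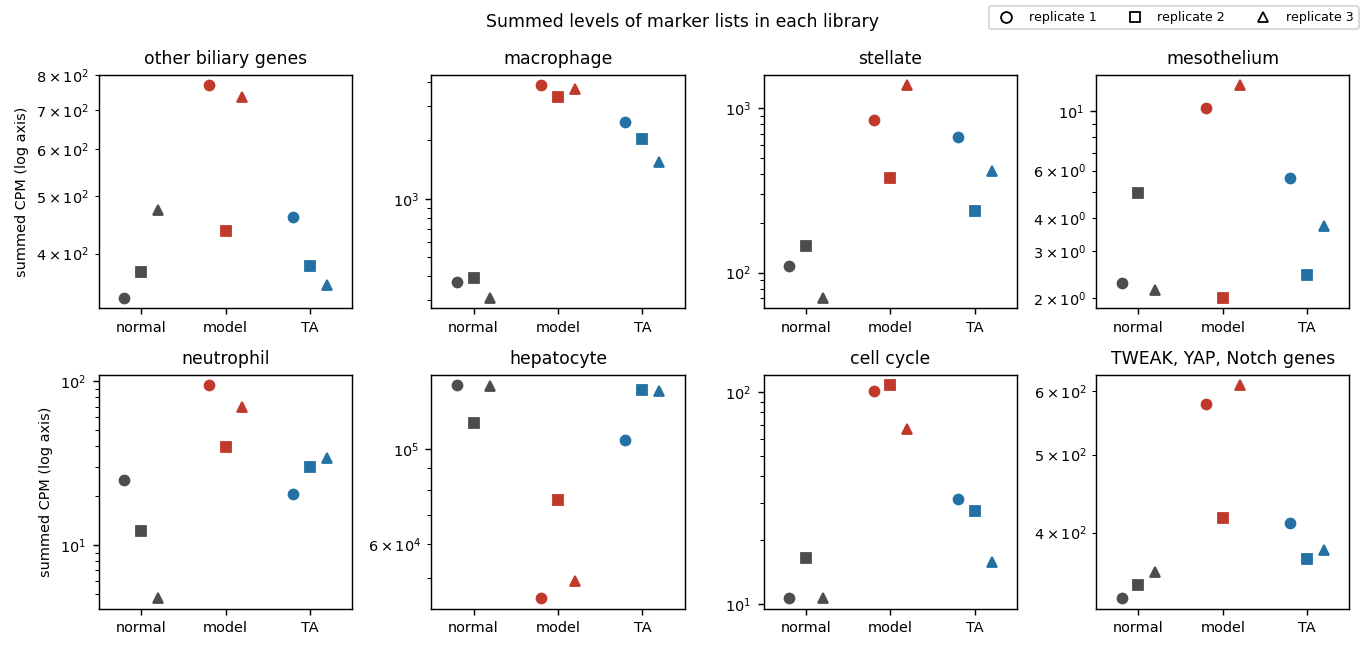
Summed CPM of the genes of each marker list (y axis, log scale) in each library, by group; marker shapes give the replicate number. Model replicate 2 (square) is the lowest model library for the biliary (437), stellate (375), neutrophil (39.6), mesothelial (2.01) and TWEAK, YAP and Notch (418) lists. It is the highest for the hepatocyte list (75822). For macrophage (3351, lowest) and cell cycle genes (107, highest) it lies near another model library.

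The profile over the 9 libraries (log2 CPM minus its mean) was nearly shared by Krt7, Cd24a, Prom1 and Spp1. Their root-mean-square distances from the median profile of the 10 genes were 0.236, 0.281, 0.314 and 0.333 on the log2 scale, and those of Epcam and Sox9 were 0.477 and 0.798. That median includes the genes themselves. Krt19 (0.981), Krt8 (1.08), Krt18 (1.13) and Krt23 (1.24) lay farthest. There were 12294 genes with a mean of at least 1 CPM, the 10 genes included. Of the others among them, the 6 nearest to the median profile were Chrnb1 (0.212), Dzip1l (0.245), Pamr1 (0.247), Rab27b (0.285), Eln (0.293) and Kcne3 (0.293). Chrnb1 encodes an acetylcholine receptor subunit, Dzip1l a ciliary protein, Rab27b a GTPase of secretory vesicles, Eln elastin and Kcne3 a potassium channel subunit. The median profile was high in model replicates 1 and 3 and TA replicate 1 and low in the normal libraries. These 6 genes share that shape because they were chosen for it.

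**Figure D5:**
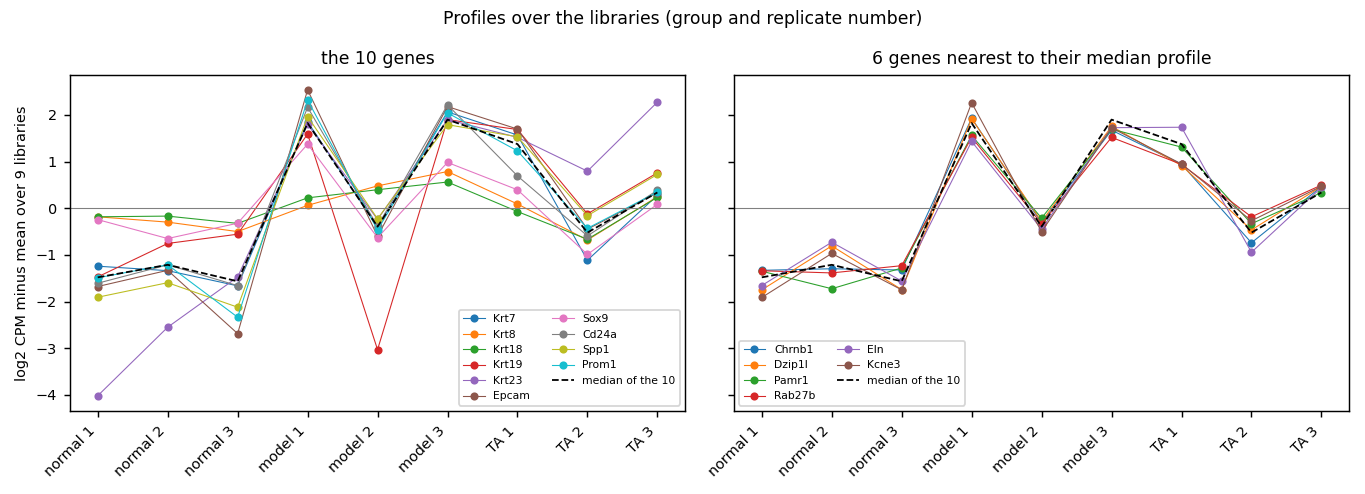
Log2 CPM minus its mean over the 9 libraries (y axis) in each library (x axis), for the 10 genes and for the 6 genes nearest to their median profile (dashed); lines join libraries only to guide the eye. Krt8 and Krt18 vary least, Krt19 dips in model replicate 2, and Krt23 stays high in the TA libraries.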

How the data were processed

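Total RNA was extracted from liver with Trizol and made into libraries with a NEBNext Ultra kit, per the labels. The submitters' processing notes name the build mm9, and no aligner or counting tool is named in the labels or headers. Raw read counts per gene were deposited in an expression table, per the file headers, and all tests used these counts. FPKM values by the authors in that table differed by at most 3.54 ppm from those counts divided by length and total, and entered no test. The authors' deposited comparison tables (DESeq, per the file names) gave a fold as a ratio of group means and an adjusted p-value, with no settings stated. They were used only where named. 1 emptied line of the table was left out.

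Counts of all genes were fitted in R 4.3.3 with edgeR 4.0.16 (filterByExpr with minimum count 10 and minimum total 15, TMM, a quasi-likelihood test over all 9 libraries). P-values were adjusted by Benjamini-Hochberg over 13200 genes, and genes with an adjusted p under 0.05 were called. Every adjusted p comes from this test unless another tool is named. SE is the log2 fold change over the square root of F. CPM uses TMM-scaled library sizes, and library totals of 13710002 to 16475794 counts set the precision of low genes. Alternatives were median-ratio (RLE) factors, library totals, no filter, a stricter filter, DESeq2 1.42.0, limma-voom (limma 3.58.1), fits of only the 6 libraries compared, the replicate number as a block and leaving out each library. The fits were tested on simulated data. Same-numbered libraries were not treated as pairs.

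The 10 genes and the lists were chosen with earlier results of these data known. Named list genes were the 4 with the smallest p in model against normal and the 1 most significant in the opposite direction, and profile-like genes the 6 nearest. A gene that the rule names among the biliary genes is not reported here. Positions are from GENCODE M21 (GRCm38) and promoters from RefSeq. Figures were drawn with matplotlib 3.10.9.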

Additional observations from a re-analysis of the deposited data

How the results depend on the processing

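Of the 10 genes, 9, 0 and 4 were called for model against normal, TA against model and TA against normal. The counts over all genes were 6344, 3031 and 2081. With library totals in place of TMM, TA against model gave 5 of the 10 genes (Krt8, Krt18, Sox9, Cd24a and Prom1) and 6122 of all genes in place of 3031; the scaling moves the median gene. Without the filter on low counts TA against model gave 1 (Cd24a), beside 2931 of all genes, and with DESeq2 2, beside 3622. With limma-voom model against normal gave 5, beside 6234 of all genes, and TA against normal 1, beside 1538. In a fit of only those 6 libraries TA against normal gave 7, beside 2074 of all genes. RLE factors and the stricter filter left each count within 1.5 times.

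Leaving out each library in turn gave 6 to 10, 0 to 4 and 2 to 7 of the 10 genes, and 4830 to 6869, 1436 to 3793 and 1092 to 2467 of all genes. Log2 keratin ratios to Krt8 then ran from −0.26 to −0.06 (Krt18), 1.47 to 2.86 (Krt7), −0.80 to 2.03 (Krt19) and 2.56 to 4.62 (Krt23) in model against normal. In TA against model they ran from −0.092 to 0.10, −1.26 to 0.13, −0.45 to 2.38 and 0.22 to 1.47, in the same order. The cause was not tested.

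Directions turned for genes that were not called. In TA against model, Krt23 (0.22) was −0.44 with library totals, −0.20 without model replicate 2 and −0.22 without TA replicate 3, and 0.54 at most without model replicate 3. Krt19 (−0.23) was 0.64 with limma-voom, 0.091 with the replicate block, 0.01 without model replicate 1, 0.32 without model replicate 3 and 0.11 without TA replicate 2, and at its lowest −0.86 without TA replicate 1. In TA against normal, Krt18 (0.10) was −0.12 without TA replicate 3 and at most 0.31 without TA replicate 2.

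With the replicate block, 8, 0 and 3 of the 10 genes were called, beside 5711, 2294 and 1575 of all genes. Pairing by replicate number is not given by the labels, and 1 of 9 same-number pairs had a correlation over 0.1 (range −0.20 to 0.12) after removal of group means.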

Other observations

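Keratins other than the 10 genes had few reads. Of 48 other keratin genes in the table, 33 had no count in any of the 9 libraries and 8 had at most 10 counts in all. Krt80, an epithelial type II keratin, had 5, 2 and 11 counts in normal, 41, 16 and 40 in model and 20, 10 and 8 in TA libraries, and rose in model against normal by 1.67 ± 0.58 (SE, log2, edgeR adjusted p = 0.0329). Krt10, a type I keratin of skin, had 9 to 28 counts per library (log2 difference −0.12, adjusted p = 0.847). Genes below the filter were named after their values were seen. Krt20, a type I keratin of gut and urothelium, had 0, 3 and 0 counts in normal, 9, 12 and 13 in model and 0 in each TA library. Unlike Krt19, it was not lower in model replicate 2. Krt17 had 9, 0 and 21 counts in model libraries and at most 2 elsewhere. At such counts these genes were not tested.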
